A study of Homo sapiens with 2 samples.

Results

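The interior peaks of chromosomes 16, 17, 19, 20 and 22 are the sites of Flag-tagged Evi1Δ324 precipitation that lie away from the ends and centromeres of 5 small human chromosomes. A peak was included if its midpoint was more than 5 Mb from either chromosome end. On chromosome 22, which has a short arm of repeats, no limit was set on the short-arm side. Peaks in centromeric, variable or stalk bands, or within 1 Mb of a centromeric band, were left out. The rule kept 856 peaks, 12.3% of the 6943 in the deposited list and 70.2% of the 1220 on these chromosomes. Of the others on the 5 chromosomes, 275 were left out for lying near an end and 89 for lying in or near centromeric and variable bands. The rest of the interior, on chromosomes 1 to 22 and X, held 4870 peaks and served for comparison.

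The cells were SKOV-3, an established ovarian carcinoma line, transfected with a pCMV plasmid that expresses Flag-Evi1Δ324 and harvested 3 days later. The labels give 1 library precipitated with the Flag M2 antibody and 1 of input chromatin from the same transfected cells, with no replicates and no precipitation from cells lacking the tag. The input file was not analysed here. A peak's tags are the reads counted in it, with a minimum of 5 in the list. Its fold is the authors' value, read as enrichment over a background whose definition is not given, and it serves here only to describe and rank peaks. All intervals and p-values describe counting within this 1 list, treat its peaks as independent and cover counting error only. How far a further culture would differ is unknown.

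EVI1, encoded by MECOM, is a zinc finger transcription factor active in blood stem cells and overexpressed in some leukaemias and ovarian carcinomas. It has 2 groups of zinc fingers, and the Δ324 splice form lacks part of the first of them. Chromosomes are stained by Giemsa into light bands, which are rich in genes and replicate early, and dark bands, which are poorer in genes and replicate late. No gene positions of the build used in the files were at hand, so peaks were placed on bands and not on genes, and no base sequence of a peak is given.

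The chromosomes were named gene-dense, and this was checked against the RefSeq annotation of GRCh38.p14 by counting protein-coding genes per chromosome. The counts cover whole chromosomes and were divided by the placed length in hg18, the build of the files. The gene density of the interiors alone was not checked. Chromosome 19 ranked first of 23, with 26.0 genes per Mb of placed sequence. Chromosomes 17 and 22 followed at 15.0 and 12.9, and chromosome 16 came next at 10.8. Chromosome 20 went against the name in part, since its 9.02 genes per Mb placed it seventh, behind chromosome 11 at 9.92 and chromosome 1 at 9.16.

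The interiors of all 5 chromosomes carried more peaks than their length would give. Together they held 3.52 peaks per Mb against 2.11 in the other 18 interiors. Observed over expected, the ratio was 1.57 (856 against 546 expected, exact Poisson 95% interval 1.46 to 1.68). These chromosomes were proposed with their density known, so the ratios are a description without a test. Chromosome 19 led with 156 peaks in 36.5 Mb, or 4.27 per Mb (ratio 1.91, interval 1.62 to 2.23). Chromosome 22 had 111 peaks in 27.3 Mb (ratio 1.81, interval 1.49 to 2.18), and chromosome 17 had 253 in 65.3 Mb (ratio 1.73, interval 1.52 to 1.95). The intervals of these 3 overlap, so their order is not resolved. Chromosome 20 held 147 peaks (ratio 1.37, interval 1.16 to 1.61) and chromosome 16 held 189 (ratio 1.26, interval 1.09 to 1.46). Chromosomes 11 and 6, at 1.31 and 1.29, lay between these last 2, so chromosome 16 ranked seventh. The copy number of these chromosomes in SKOV-3 was not measured, and its part in these ratios was not tested.

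**Figure D1:**
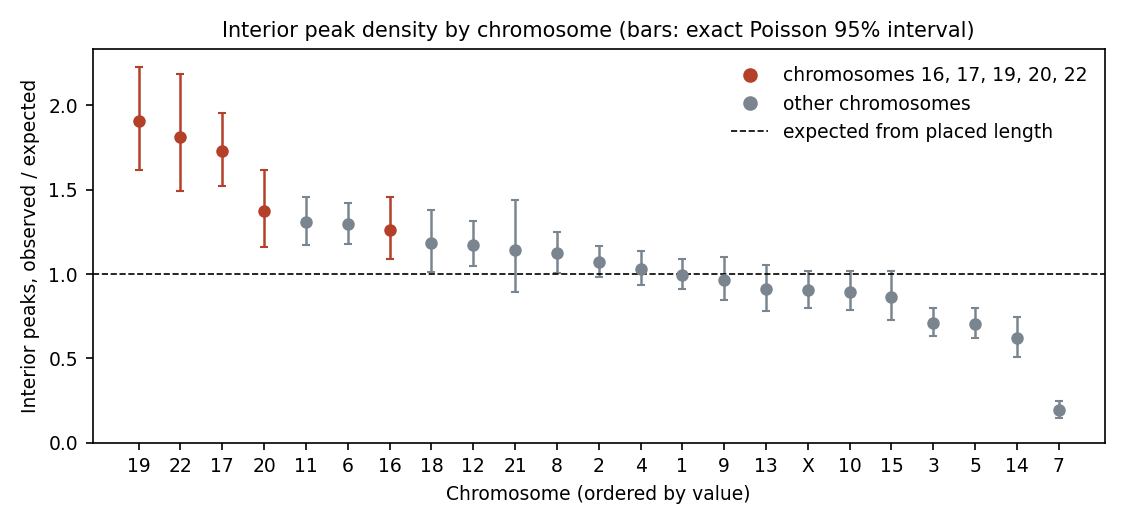
Observed over expected interior peaks for each of 23 chromosomes (vertical axis, ratio; horizontal axis, chromosomes in order of ratio), with exact Poisson 95% intervals as bars and a dashed line at 1. Chromosomes 19, 22, 17 and 20 hold the first 4 places, at 1.91 to 1.37, and chromosome 16 is seventh at 1.26, while chromosome 7 is last at 0.194.

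Density differed between the arms of chromosome 17. The long arm held 221 peaks, or 4.49 per Mb (exact Poisson 95% interval 3.92 to 5.13), and the short arm 32, or 1.99 per Mb (interval 1.36 to 2.81). These intervals do not overlap. On chromosome 19 the short arm was at 4.67 per Mb and the long arm at 4.01, with intervals of 3.63 to 5.90 and 3.21 to 4.94. The arms of chromosome 16 were at 2.75 and 2.90 per Mb, and those of chromosome 20 at 2.54 and 3.46, again with overlapping intervals. Arm differences were not tested.

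Peaks resting on more tags were over-represented in these interiors. Of the 856 peaks, 168 had 8 tags or more (19.6%, exact Clopper-Pearson 95% interval 17 to 22.4), against 401 of 4870 in the other interiors (8.23%, interval 7.48 to 9.04). The share was 2.38 times as high (Fisher's exact test, two-sided, adjusted over 3 shares, p = 1.18e-20). The test counts each peak as independent, although tags ran higher in groups of neighbouring peaks. Its p-value does not measure the spread between chromosomes. With peaks merged within 10 kb, the shares were 21.6% and 10.1%, a ratio of 2.15. Merging adds tags together and each peak has at least 5, so every merged group reached 8 tags by construction. The merged shares therefore count grouping as well and are no check on it. Among single peaks, with no other within 10 kb, the shares were 12.99% (interval 10.5 to 15.8) and 5.63% (interval 4.96 to 6.35). This single-peak difference was not tested. At the other end, 51.3% of the members rested on exactly 5 tags against 65.9% of the others. Peaks of 20 tags or more made up 2.80% of the members and 1.13% of the others. At 100 tags or more the order was reversed, with 1 member (0.117%) and 15 others (0.308%). The exact intervals of these 2 shares overlapped. Leaving out any of the 5 chromosomes in turn kept the ratio between 2.03, without chromosome 19, and 2.66, without chromosome 16. When chromosomes 3, 5, 7, 14 and X, whose observed over expected ran from 0.194 to 0.905, were removed from the comparison, the ratio was 2.15. This alternative was chosen after seeing the data, and chromosomes 15 (0.865) and 10 (0.895), also below X in density, were kept.

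Chromosome 19 stood highest, with 51 of 156 peaks at 8 tags or more (32.7%, interval 25.4 to 40.7). Chromosome 22 followed with 23 of 111 (20.7%, interval 13.6 to 29.5) and chromosome 17 with 49 of 253 (19.4%, interval 14.7 to 24.8). Chromosome 20 had 23 of 147 (15.6%) and chromosome 16 had 22 of 189 (11.6%, interval 7.44 to 17.1). The 18 other chromosomes ran from 1.09% to 16.6%, with a median of 6.56%. The lower bound of chromosome 19 lay above the upper bound of chromosome 12 (21.3%), the highest of the others. The interval of chromosome 16 overlapped those of several other chromosomes, among them chromosome 1 at 11.5%. Counted over peaks of 8 tags or more alone, observed over expected for the 5 chromosomes together was 3.10 (interval 2.65 to 3.60). For single chromosomes it was 6.27 for 19 (interval 4.67 to 8.24), 3.78 for 22 (2.40 to 5.68) and 3.37 for 17 (2.49 to 4.45). It was 2.16 for 20 (1.37 to 3.24) and 1.48 for 16, where 22 peaks gave an interval of 0.927 to 2.24 that includes 1.

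**Figure D2:**
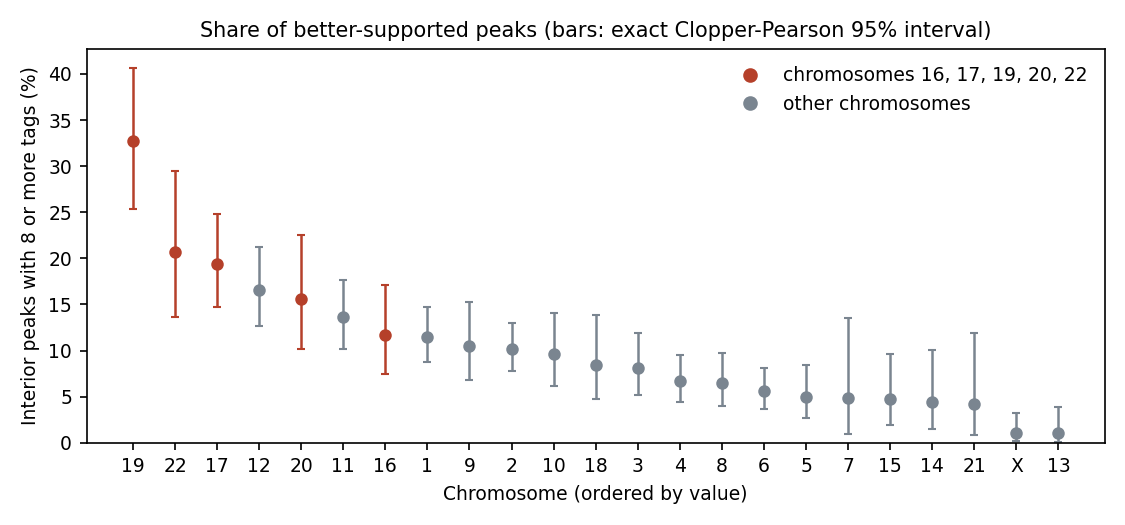
Percent of interior peaks with 8 tags or more (vertical axis) for each of 23 chromosomes in order of that share (horizontal axis), with exact Clopper-Pearson 95% intervals as bars. Chromosome 19 is highest at 32.7%, chromosomes 22 and 17 follow at 20.7% and 19.4%, and chromosome 16 is seventh at 11.6%, while chromosome 13 is lowest at 1.09%.

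Peaks with many tags were more frequent among members in Giemsa-negative bands and in Giemsa-positive bands pooled. In Giemsa-negative bands, 23.3% of the members and 10.7% of the others had 8 tags or more (ratio 2.18, Fisher's exact test, adjusted p = 1.22e-11). In Giemsa-positive bands the shares were 15.5% and 5.95% (ratio 2.61, Fisher's exact test, adjusted p = 6.80e-10). Within the members the share was 23.3% in Giemsa-negative bands and 22.1% in the lightest stained class (gpos25). It was 17% in gpos50 (interval 11.3 to 24.1) and 8.85% in gpos75 (interval 4.33 to 15.7). In the darkest class, gpos100, which here is the single band 16q21, 1 of 24 peaks had 8 tags or more. In the other interiors the shares were 13.7% in gpos25, 6.83% in gpos50, 4.87% in gpos75 and 2.61% in gpos100. The exact intervals of members and others overlapped in each of these classes except gpos50. The pooled ratio also mixes classes: gpos25 held 122 of 406 members and 365 of 2536 others, and gpos100 held 24 and 843. Single classes were not tested.

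Median fold was nearly the same in members and others, at 14.8 and 14.7, and both upper quartiles were 19.4. The tails differed on both sides. The lower quartiles were 13.2 and 13.8, and a fold under 10 was found for 33 members (3.86%) and 115 of the others (2.36%), a difference that was not tested. A fold of 20 or more was found for 120 members (14%, exact Clopper-Pearson 95% interval 11.8 to 16.5) and 458 of the others (9.40%, interval 8.60 to 10.3). The ratio was 1.49 (Fisher's exact test, two-sided, adjusted over 3 shares, p = 7.74e-05). Chromosome 19 had the highest share of all 23 chromosomes, 34 of 156 (21.8%), and chromosome 17 the lowest of the 5, 26 of 253 (10.3%). The 18 others ran from 6.19% to 14.8% with a median of 9.18%, and chromosomes 11 (14.8%) and 7 (14.5%) stood above chromosomes 20, 22, 16 and 17. Without chromosome 19 the ratio was 1.31 (Fisher's exact test, adjusted p = 0.0204).

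The fold moved with the tags. Members of 5 tags had a median fold of 14.7 and those of 6 to 7 tags one of 14.4. It rose to 16 for 8 to 19 tags and to 24.8 for 20 to 99. A fold of 20 or more was held by 9.11% of members at 5 tags and by 73.9% at 20 to 99 tags. Among peaks of exactly 5 tags the members still exceeded the others, 9.11% against 6.30% (Fisher's exact test, adjusted p = 0.0314). At 6 to 7 tags the values were 8.84% for members and 11.3% for others, a difference that was not tested. Among peaks of 8 tags or more they were 34.5% and 28.2% (Fisher's exact test, adjusted p = 0.134). In Giemsa-positive bands the difference also missed the threshold, at 11.3% against 9.27% (Fisher's exact test, adjusted p = 0.203).

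**Figure D3:**
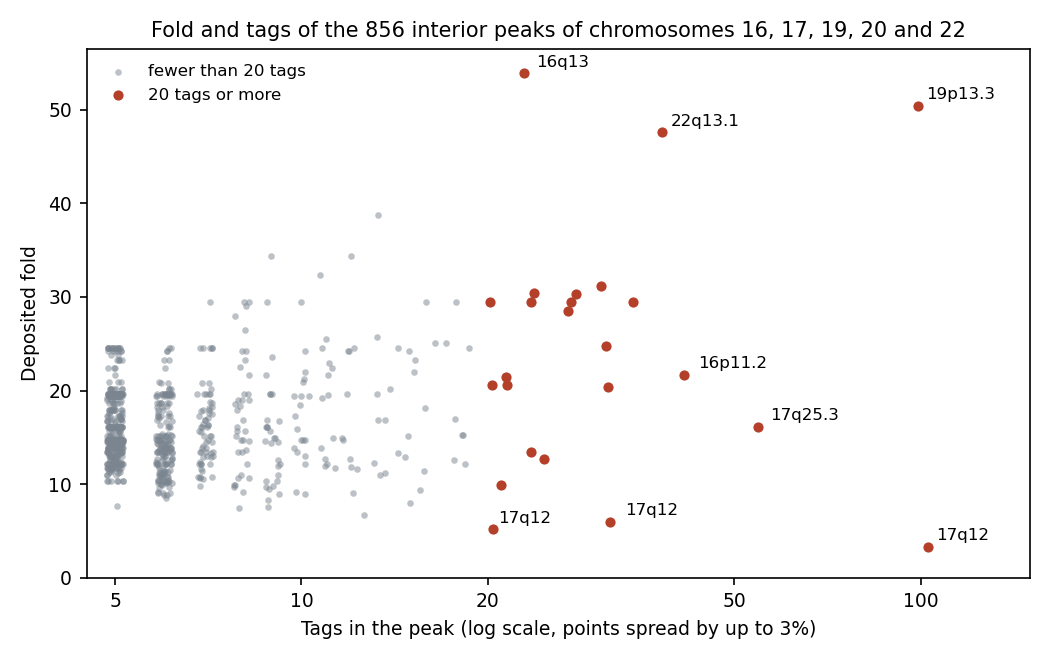
Deposited fold (vertical axis) against tags in the peak (horizontal axis, log scale) for the 856 members, each point 1 peak, spread sideways by up to 3%, and those of 20 tags or more in red. Most points lie between folds of 10 and 25 at 5 to 7 tags; the peaks in 16q13, 19p13.3 and 22q13.1 stand above a fold of 45, and 3 peaks in 17q12 have 20 tags or more with folds under 6.

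The strongest peaks combined a high fold with many tags. In all, 24 members had 20 tags or more, and 17 of these also had a fold of 20 or more, or 1.99% of the members against 0.472% of the other interior peaks. On chromosome 19 the leading peak lay in 19p13.3 (chromosome 19, 6020908 to 6021449, 542 bp), where 98 tags gave a fold of 50.4. Next by fold came 19q13.11 (39916179 to 39916385) with 34.3 and 12 tags, and 19p13.11 (17584245 to 17584402) with 34.3 and 9 tags. The second by tags on that chromosome was in 19q13.32 (52866631 to 52867131), at 34 tags and a fold of 29.4. In GRCh38, 19p13.11 holds JUND, a subunit of the AP-1 transcription factor, and ZNF genes such as ZNF101, which encode zinc finger proteins. The ZNF genes ZNF507 and ZNF302 are in 19q13.11. These names place a gene in the same band, not at the peak.

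On chromosome 22 the leading peak by fold and by tags was in 22q13.1 (chromosome 22, 36914938 to 36915319), at 47.6 and 38. That band also holds MAFF, a small Maf transcription factor that pairs with other basic leucine zipper proteins. A pair of neighbouring peaks in 22q11.21 came next, at 18619071 to 18619413 (fold 31.1, 30 tags) and at 18619472 to 18619749 (fold 30.4, 24 tags). The second by tags was in 22q12.3 (34259525 to 34259961), with 31 tags and a fold of 24.8, tied in tags with another peak of that band (35798643 to 35799061, fold 20.3). On chromosome 20 the highest fold was in 20q13.13 (chromosome 20, 46511858 to 46512071), at 38.8 with 13 tags. That band holds CEBPB, a basic leucine zipper factor of inflammation and adipocyte differentiation. The next folds were lower and rested on few tags, 25.5 with 11 tags in 20p12.3 (5879427 to 5879642) and 24.5 with 5 tags in 20p12.2 (10108251 to 10108335), the first by position of 4 peaks tied at that fold and tag count. By tags chromosome 20 was led by 20p11.23 (20265962 to 20266221, 22 tags, fold 20.5) and 20q11.23 (36376224 to 36376629, 21 tags, fold 9.86).

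On chromosome 16 the highest fold among all members, 53.9 with 23 tags, was in 16q13 (chromosome 16, 56296887 to 56297118). The next peak along the chromosome (56297142 to 56297520) was second, at 29.4 with 28 tags. The third was in 16p12.1 (23235182 to 23235408), at 25.7 with 13 tags. Most tags were in 16p11.2 (27949701 to 27950344), 42 at a fold of 21.7. Chromosome 17 had no member with a fold above 29.4. That value was reached in 17q12 (chromosome 17, 30436176 to 30436389, 9 tags) and in 17p13.1 (8032022 to 8032139, 7 tags). It was followed by 28.5 with 27 tags in 17q21.32 (42064873 to 42065184), a band that holds the HOXB cluster of developmental homeobox genes (HOXB1, HOXB2 and others). The second by tags was in 17q25.3 (72977810 to 72978410), 55 tags at a fold of 16.2.

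The peak with the most tags among all members behaved otherwise. In 17q12 (chromosome 17, 30502218 to 30502496) 102 tags came with a fold of 3.34, the lowest of the 856. Low folds at such counts were not particular to this peak. In the other interiors, 15 peaks of 100 tags or more had a median fold of 2.85, with a range of 1.48 to 53.3. The band 17q12 holds ERBB2, a receptor tyrosine kinase amplified in some breast and ovarian carcinomas. That name places a gene in the same band, not at the peak. Further peaks of low fold and 20 tags or more lay in the band, well apart from the peak of 102 tags. They were at 35109512 to 35109906 (32 tags, fold 5.99) and 35031851 to 35032191 (20 tags, fold 5.18). The background index, tags per kb divided by fold, was 109, 13.5 and 11.3 for these 3 peaks, against a member median of 2.90. Without 17q12 and 17p11.2, another band with tightly grouped peaks, the share of peaks with 8 tags or more was 18.9%, 2.30 times that of the other interiors.

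Inside the chromosomes, few bands were called as departing from their length. Each band's peaks were compared with its share of the placed interior length of its own chromosome, so that the choice of chromosomes does not enter. Of 66 bands with at least 5 expected peaks, 2 had more peaks than expected and 1 fewer (exact binomial test, two-sided, adjusted over 490 bands of 23 chromosomes). Over all 490 bands, 2.24% were called higher and 1.84% lower, and the members' shares of 3.03% and 1.52% were near these. The median ratio of the 66 bands was 0.946, with a range of 0.110 to 2.73. At an unadjusted p under 0.05 by the exact binomial test there were 9 bands. Fewer than 10 peaks were expected in 24 of the 66, so a band that was not called cannot be said to follow its length.

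The smallest adjusted p belonged to 17q21.31, a Giemsa-negative band of 4 Mb. It contained 37 peaks where 15.5 were expected, a ratio of 2.39 (95% interval 1.68 to 3.29; exact binomial test, adjusted p = 0.000128). The most tags in any of its peaks were 15, the folds ran from 8.86 to 24.2 with a median of 13.8, and 10 had 8 tags or more. They were spread out, forming 31 loci when peaks at most 10 kb apart were joined, and the ratio was then 2.34. Among peaks with a fold above the list median the band was no longer called (13 peaks, ratio 1.75, exact binomial test, adjusted p = 0.509). Over all 37 peaks of the band the background index had a median of 3.69, against 2.90 for all members. The part of this index in the count was not tested.

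The other band called higher was 16q13, Giemsa-negative and home to the metallothionein genes (MT3, MT2A, MT1E and others), which encode small metal-binding proteins. Its 17 peaks compare with 6.23 expected, a ratio of 2.73 (exact Poisson limits 1.59 and 4.37; adjusted p = 0.00884 by the exact binomial test). Of these, 5 formed a chain of 1.5 kb, from 56296887 to 56298387. In order along the chromosome their folds were 53.9, 29.4, 21.7, 8.36 and 20.6, with 23, 28, 11, 9 and 20 tags. Outside the chain, 12 peaks carried 5 to 11 tags each, with folds from 8.86 to 19.6. Counted as 1 where at most 1 kb apart, the peaks no longer made 16q13 a called band (12 peaks, ratio 2.12, exact binomial test, adjusted p = 0.228).

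The band 17p12, on the sparse short arm of chromosome 17, had the fewest peaks for its length. Its 4.70 Mb held 2 where 18.2 were expected, a ratio of 0.110 (exact Poisson limits 0.0133 and 0.397; adjusted p = 0.000188 by the exact binomial test). These peaks, at 13047936 to 13048059 and 13950224 to 13950321, had 6 and 5 tags and folds of 12.1 and 19.6. With a fold above the list median required, 1 peak was left and the band missed the threshold (ratio 0.115, exact binomial test, adjusted p = 0.0797).

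On the other 3 chromosomes no band was called, by the exact binomial test with adjustment; at an unadjusted p under 0.05 there were 2 on chromosome 19, 3 on chromosome 20 and 0 on chromosome 22. The densest band of chromosome 20 was 20q11.21, with 15 peaks against 6.47 expected (ratio 2.32, exact binomial test, adjusted p = 0.0668), and the sparsest was 20q11.22, with 3 against 7.39. On chromosome 19 the part of 19p13.3 beyond 5 Mb from the end was densest (15 against 8.12, ratio 1.85, exact binomial test, adjusted p = 0.246), and 19q13.12, which holds ZNF genes such as ZNF565 and ZNF146, was sparsest (5 against 11.5). On chromosome 22 the extremes were 22q11.21 (19 against 12.8) and 22q13.31 (6 against 8.31), and on chromosome 16 the sparsest was 16q12.2 (5 against 9.35). None of these differed from expectation beyond counting error after adjustment.

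**Figure D4:**
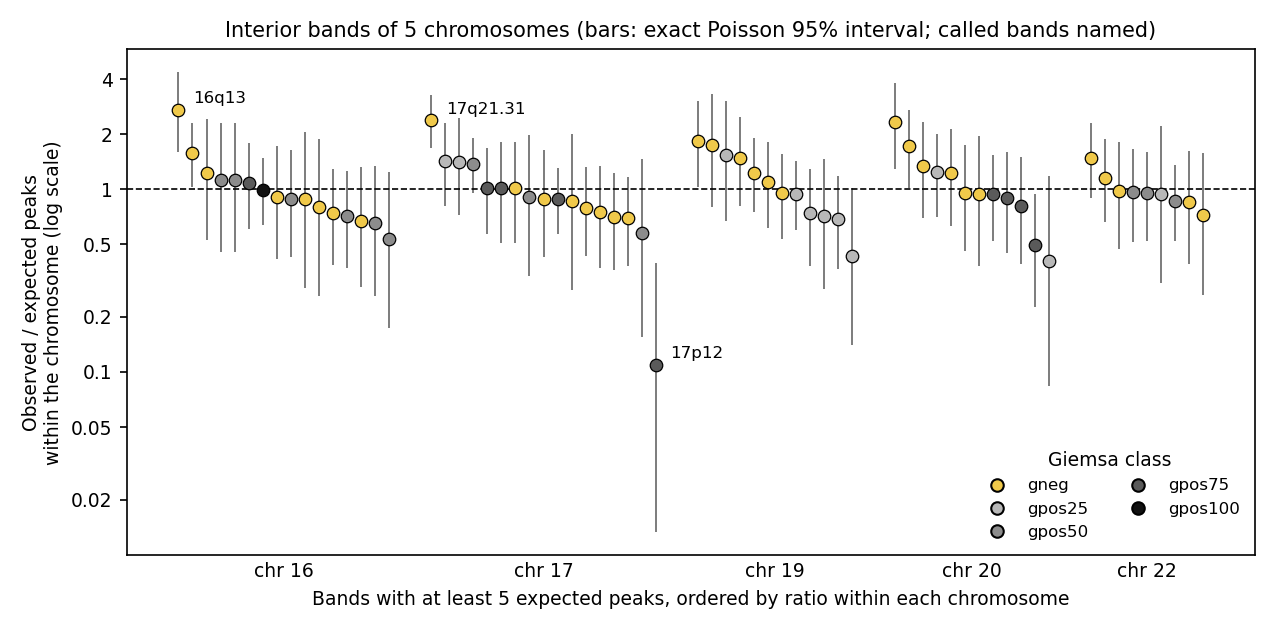
Observed over expected peaks (vertical axis, log scale) for the 66 interior bands of the 5 chromosomes, ordered by ratio within each chromosome (horizontal axis), with exact Poisson 95% intervals as bars and Giemsa class as colour. The bands 16q13 at 2.73, 17q21.31 at 2.39 and 17p12 at 0.110 are the called ones, and most others have intervals that include 1.

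Bands of 10 peaks or more differed in the support of their peaks. In 19p13.3 and 19p13.11, 9 of 15 peaks each had 8 tags or more (60.0%, exact Clopper-Pearson 95% interval 32.3 to 83.7). In 20q11.21 it was 7 of 15, in 19q13.33 9 of 20 and in 17q21.32 7 of 16. By contrast, 6 bands had no such peak. Among them 0 of 15 reached 8 tags in 20q13.2, a dark band (upper bound 21.8%), and 0 of 14 in 22q12.1 (upper bound 23.2%). A low count was not restricted to dark bands: 17q24.2 is Giemsa-negative and had 0 of 10. These bands were picked as extremes of the share after the values were seen.

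Giemsa-negative bands held 450 members against 395 expected from the length of such bands within each chromosome (ratio 1.14, exact Poisson 95% interval 1.04 to 1.25). In the other interiors the ratio was also 1.14. The class gpos75 was at 0.780 (113 peaks, interval 0.643 to 0.938), and the lightly stained gpos25 at 0.888 (122 peaks, interval 0.737 to 1.06), where the other interiors were at 1.17 (interval 1.06 to 1.30). Tested chromosome by chromosome, the Giemsa-negative share exceeded its length on 2 of the 5, as it did on 30.4% of all 23. Chromosome 20 had 53.1% of its peaks on 40.6% of the length (ratio 1.31, exact binomial test, adjusted p = 0.0177). Chromosome 19 had 56.4% on 44.9% (ratio 1.26, exact binomial test, adjusted p = 0.0214). Chromosomes 16, 22 and 17 were at 1.09, 1.08 and 1.06, with adjusted p of 0.351, 0.515 and 0.500. After merging peaks within 10 kb, chromosomes 20 and 19 were at 1.28 and 1.23 and missed the threshold (exact binomial test, adjusted p = 0.0654 and 0.0721).

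Members had near neighbours more often than the other interior peaks. The next peak lay within 10 kb for 111 of 856 (13%, exact Clopper-Pearson 95% interval 10.8 to 15.4), against 281 of 4870 (5.77%, interval 5.13 to 6.46). The ratio was 2.25 (Fisher's exact test, two-sided, adjusted over 3 shares, p = 3.09e-12). Chromosomes 22, 17 and 19 had the 3 highest shares of the 23, at 14.4%, 14.2% and 14.1%, chromosome 16 followed at 13.2%, and chromosome 20 was at 8.16%. Peak density, known when these chromosomes were chosen, was itself higher, 3.52 against 2.11 per Mb, which by itself brings peaks closer together. Equal shares were thus not to be expected, so the p-values for near neighbours cannot show grouping beyond density. The part of density in the ratio was not tested. After merging peaks within 1 kb the shares were 4.97% and 2.69% (ratio 1.85, Fisher's exact test, adjusted p = 0.00143).

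Members with a close neighbour had more tags, as had such peaks elsewhere; the difference was not tested. Joining members at most 1 kb apart gave 784 loci, of which 52 were groups of 2 or more. The 124 grouped peaks had 8 tags or more in 51.6% (interval 42.5 to 60.7) and single peaks in 14.2% (interval 11.8 to 16.9). In the other interiors these shares were 46.9% and 6.07%. The median fold was 17.1 in groups and 14.7 in single peaks. At 10 kb, 74 groups held 186 peaks, and the median folds were closer, 15.1 in groups and 14.7 in single peaks.

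The largest group at 10 kb was in 17p11.2, 6 peaks over 8.27 kb (chromosome 17, 19025777 to 19034043) with 5 to 15 tags and folds of 12.9 to 19.6. In GRCh38 that band holds genes of U3, the small nucleolar RNA of ribosomal RNA processing (SNORD3A, SNORD3D and others). Next in number were the chain in 16q13 and 5 peaks in 20q13.12 (chromosome 20, 44406859 to 44414956) with at most 8 tags each. Groups of 4 that rested on more tags were in 22q12.3 (chromosome 22, 35797773 to 35799061, 60 tags in sum) and in 17q12 (chromosome 17, 34563273 to 34564302, 46 tags). In all, 24 groups held 3 peaks or more. The same stretches gave the densest windows of 100 kb on their chromosomes. The window of chromosome 17 from 19000001 held 7 peaks, that of chromosome 16 from 56200001 held 6, and those of chromosome 20 from 44400001 and chromosome 22 from 35700001 held 5 each. On chromosome 19 the densest window, from 5600001 in 19p13.3, held 6 peaks with 55 tags. The density of that interior gives a mean of 0.427 per window. A window picked as the densest lies above the mean by choice, so the excess was not tested.

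Peaks on either side of the 5 Mb limit are described without a test. In the last 1 Mb left out, at 4 to 5 Mb from an end, 50 peaks had a median fold of 15.6, and 36.0% had 8 tags or more (exact interval 22.9 to 50.8). In the first 1 Mb kept, at 5 to 6 Mb, 36 peaks had a median fold of 14.9, and 27.8% had 8 tags or more (interval 14.2 to 45.2).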

How the data were processed

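The deposited peak list of the ChIP library was analysed. It has no header. Reads were mapped to hg18, per the submitters' processing notes; for the aligner, the peak caller and its settings, the record is: not given in the sources used here. Per the labels' protocols, crosslinking was for 10 minutes in formaldehyde at 1%, DNA was amplified for 15 cycles, and fragments of 200 to 300 bp were sequenced. The deposited fold (a ratio) and the deposited count of tags per peak were identified from their values. Library depth is unknown.

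Bands and placed contigs of hg18 came from circlize 0.4.16 and IRanges 2.36.0 under R 4.3.3. Tests used scipy 1.17.1 under Python 3.11.15. Benjamini-Hochberg adjustment ran over 490 bands, 23 chromosomes or 3 shares, with a threshold of 0.05. The band, Giemsa and share tests were tested on simulated lists. Gene names were assigned to a band of the same name from RefSeq GRCh38.p14, and no coordinates were carried between builds. Per chromosome, the 3 highest folds and 2 highest tag counts were named, with each chromosome's densest and sparsest bands, all called bands and its densest window of 100 kb. Members, lists and rules were chosen with earlier results of these data known. Gene features and motifs were not analysed here, since they need hg18 sequence or annotation. Alternatives were merging, minimum tags or fold, other limits, other expectations and left-out chromosomes or bands.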

Additional observations from a re-analysis of the deposited data

How the results depend on the processing

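Results were set against alternatives 171 times, and in 149 they kept their direction and side of the threshold, stayed within their interval, or, for counts, within 1.5 times. Single bands and chromosomes are included, and some of these could not move. Leaving out 17q12 and 17p11.2 cannot change band or Giemsa ratios on chromosomes without these bands. For results over the 5 chromosomes together, 48 comparisons stayed within these limits, 7 moved outside them and 2 fell short of the threshold. Density of the 5 chromosomes together was 1.46 to 1.57 over 7 alternatives, lowest with peaks merged within 10 kb (1.46), and 3.10 with 8 tags or more. For chromosome 16 alone, the interval included 1 with 8 tags or more (0.927 to 2.24) and with a fold above the list median (0.959 to 1.47). The 3 called bands became 8 when expectation came from the interior of all chromosomes, of which 2 were the same; 16q13 was not tested there, since fewer than 5 peaks were expected. With a fold above the list median the count was 0 of 44 bands (exact binomial test; 3 at an unadjusted p under 0.05), and with 8 tags or more it was 0 of 6 (0 unadjusted), fewer peaks leaving fewer bands to test. Over its alternatives the adjusted p of 17q21.31 ran from 5.17e-10 to 0.509, that of 17p12 from 8.32e-05 to 0.0797 and that of 16q13 from 0.00881 to 0.295. The 2 chromosomes with a raised Giemsa-negative share became 1 and 0 with merging within 1 kb and 10 kb (2 unadjusted in both), and the cause was not tested. The ratio for a fold of 20 or more was 1.22 in Giemsa-positive bands and 1.23 among peaks of 8 tags or more, alternatives chosen after seeing the data, as were Giemsa-negative bands alone, a fold above the median for near neighbours, and leaving out chromosomes 3, 5, 7, 14 and X from the comparison; their cause was not tested. Most peaks rest on under 8 tags, which limits what any subset can show. No paired analysis was possible because each group has 1 sample.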

Other observations

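Folds of peaks of exactly 5 tags often fell on whole multiples of 4.9, within 0.012. This held for 127 of 439 members (28.9%, exact Clopper-Pearson 95% interval 24.7 to 33.4) and for 1259 of 3208 other interior peaks (39.2%, interval 37.6 to 41.0), a difference that was not tested. The background index had a median of 2.90 in members (quartiles 2.50 and 3.59) and 2.77 in the others (quartiles 2.45 and 3.24). It was highest on chromosome 17, at 3.10, and the other 4 chromosomes were at 2.82 to 2.86. Chromosome 12, outside the 5, was at 2.91. Median width was 128 bp in members and 125 bp in the others, and on chromosome 19 it was 132 bp with an upper quartile of 172 bp.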
